A study of Mus musculus with 14 samples.

Results

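Septins are GTP-binding proteins that join into hetero-oligomers and filaments, which form part of the cytoskeleton under the plasma membrane, at branch points and in synaptic terminals. They fall into subgroups by sequence: the SEPT2 group (here Sept2, Sept4 and Sept5), the SEPT3 group (Sept3 and Sept9), the SEPT6 group (Sept6, Sept8, Sept10 and Sept11) and SEPT7, which stands alone in its group and sits in the core oligomers. In the nervous system septins are known from axons, dendritic spines, synapses and myelin. The members described here are the 10 genes Sept2 to Sept11, taken by gene symbol from the RNA-seq gene tables, 10 of 19215 genes, together with their cassette exons, 13 of 13189. Cassette exons lie between 2 other exons and are either kept in the mRNA or left out of it.

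The study mapped the RNA targets of NOVA, a pair of neuronal splicing factors that bind YCAY motifs, in spinal motoneurons (MNs) and in whole spinal cord (WSC) of the mouse. NOVA was crosslinked to RNA and immunopurified, and the bound fragments were sequenced (HITS-CLIP). For MNs, 4 replicates were made from each of 2 transgenic lines, Chat:GFP-Nova #6 and #17, hemizygous on C57BL/6 and 3 months of age, with a mixture of monoclonal antibodies to GFP. For WSC, 4 replicates came from wild-type C57BL/6 mice of 3 months with an antiserum that recognizes NOVA1 and NOVA2. In the MN lines a GFP-tagged NOVA2 is made from the Chat promoter, so these libraries report on cells that express Chat, each MN library pools several cords, and the tagged protein is added to the NOVA that the cells already have. The antibodies, the protein and the number of animals therefore differ between MN and WSC libraries along with the cell type, and cannot be told apart. RNA-seq was made from 1 male and 1 female WSC of Tg(SOD1)2Gur/J mice, 12 weeks of age on a B6/SJL background, which carry wild-type human SOD1. This strain differs from that of the CLIP libraries.

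The MN libraries held 65961 to 871804 unique CLIP reads and the WSC libraries 2213104 to 6095995, so MN values rest on far fewer reads. The RNA-seq libraries held 72006019 (male) and 65625173 (female) reads on genes. As a check of the labels, Chat reads were higher in the MN libraries (log2 fold change 3.08). So were reads of the motoneuron genes Chodl and Slc5a7 (2.48 and 2.22). The transgene carries the Chat promoter, and whether it adds to the Chat reads was not tested. Reads of Slc6a5, the glycine transporter of inhibitory interneurons, were lower (log2 fold change -4.35). The oligodendrocyte gene Mbp, which encodes a myelin protein, did not pass the threshold (log2 fold change -0.11), whereas the 3 astrocyte genes tested, Aqp4, Gfap and Slc1a2, were lower by -0.72, -0.77 and -1.14. A larger part of all reads was intronic in MNs: exonic reads made up 38.6% ± 3.82 (SD, n = 8) in MN libraries and 63.4% ± 2.16 (SD, n = 4) in WSC libraries.

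To show where NOVA met septin RNA, the 30-nt window with the highest read coverage was taken for each gene, separately from the WSC and the MN libraries. The windows below are those on which the later results turn, written 5′ to 3′ on the RNA strand with mm9 coordinates and with YCAY in capitals, that is CCAC or CCAT, and the same words with T as first letter, TCAC or TCAT. They were chosen by read coverage, so the read counts given with them are a description.
Sept8, WSC window, 3′ UTR in exon 10b, chr11:53362917-53362946 (+): caagaaacccagcgacattcccgcgtggag
Sept8, MN window, intron upstream of exon 10b, chr11:53361387-53361416 (+): taCCATtTCATcctaatctgtcctgaaggc
Sept3, WSC window, 3′ UTR, chr15:82122159-82122188 (+): catgcatTCACcCCATttcctgcctgtctc
Sept7, WSC window, 3′ UTR, chr9:25116021-25116050 (+): atgggaaTCATggcctcttgaagagaaaaa
Sept7, MN window, 3′ UTR, chr9:25115742-25115771 (+): atattattcTCATttagtgcccctgtagcc
Sept6, WSC window, 3′ UTR, chrX:34453153-34453182 (-): tagttagggctCCATactgtctcaagcaag
Sept9, WSC window, coding sequence, chr11:117221759-117221788 (+): gacaTCACcagcaacatCCACttcgaagcc
Sept5, WSC window, 3′ UTR, chr16:18622563-18622592 (-): tatctgcttccgagtgctctgaaTCACagc
Sept11, WSC window, intron, chr5:93598416-93598445 (+): aaaacattTCATgtatactggatgtgcctt

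Of the 10 septin WSC windows, 9 held at least 1 YCAY, and over all 4530 genes tested for CLIP the WSC window held one in 91.9%. The exception was the Sept8 WSC window, which says only that these letters are not in those 30 bases. Of the 10 MN windows 9 held one, and that of Sept4 did not. The MN windows of Sept2, Sept4 and Sept10 each rest on 1 read, and those of Sept5, Sept6, Sept9 and Sept11 on 5 or 6. No share over all genes was computed for MN windows. For Sept3 the MN window lay 3 nt upstream of the WSC window and overlapped it. Of Sept3 reads, 1255 of 7592 WSC reads (16.5%) and 87 of 504 MN reads (17.3%) touched their own window. For Sept8 the windows of WSC and MNs lay in different parts of the gene. The MN window was touched by 95 of 578 MN reads (16.4%) and by 152 of 3421 WSC reads (4.44%), with reads in 7 of the 8 MN libraries. The Sept8 WSC window was touched by 604 of 3421 WSC reads (17.7%) and by 15 of 578 MN reads (2.60%).

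The first question was how much RNA of each septin the cord held. All 10 septins were present in both RNA-seq libraries, and the family spanned a range from Sept4 at the top to Sept10 at the bottom. The NCBI gene identifiers in the tables, from Sept2 to Sept11, were 18000, 24050, 18952, 18951, 56526, 235072, 20362, 53860, 103080 and 52398. Levels are given as RPKM, reads per kilobase of exon and scaled to library size, which allows genes of different length to be compared. The median septin lay above 92.6% of all genes, and the median of the 10 mean levels was 47.7 RPKM, compared with 10.3 RPKM for the 11940 genes with a mean of at least 1.

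In the SEPT2 group, Sept4, a septin of oligodendrocytes, astrocytes and sperm, had 187.6 RPKM in the male and 176.8 RPKM in the female library, the highest of the family. Sept5, a septin of presynaptic vesicles that binds syntaxin, followed with 123.8 and 120.8 RPKM. Sept2, which gives its name to the group, had 43.7 and 47.9 RPKM. Sept7, the shared core subunit, came next in the family at 87.0 and 99.0 RPKM. In the SEPT3 group, Sept3, a neuronal septin, had 51.1 and 48.0 RPKM, and Sept9, which extends the hexamer to an octamer, had 14.2 and 15.4 RPKM. As a ratio of the highest to the lowest level, the SEPT6 group spread most widely. Sept8 had 56.1 and 59.4 RPKM, Sept6 18.8 and 19.9 RPKM, Sept11 5.76 in both libraries, and Sept10 5.52 and 5.70 RPKM. The 3 further septin genes were low: Sept14 had 2.04 and 2.15 RPKM, Sept1 1.77 and 2.90 RPKM, and Sept12, a testis septin, 0 and 0.00848 RPKM.

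**Figure D1:**
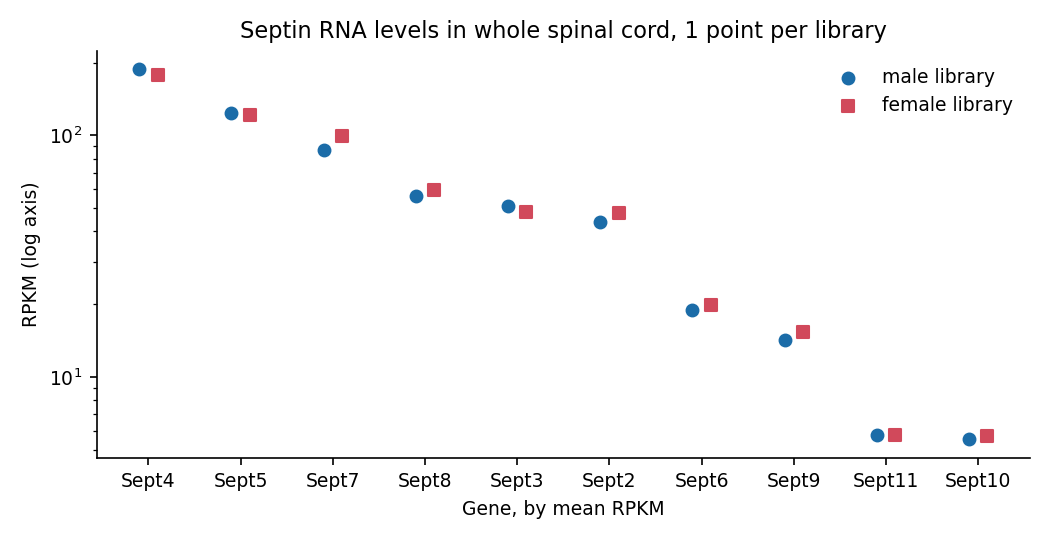
RNA levels of the 10 septins in the male (circles) and female (squares) WSC library, as RPKM on a log axis, ordered by mean. Sept4 is highest, at 187.6 and 176.8 RPKM, and Sept10 lowest, at 5.52 and 5.70 RPKM, and the 2 points of each gene lie close together.

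The order by mean level was Sept4, Sept5, Sept7, Sept8, Sept3, Sept2, Sept6, Sept9, Sept11 and Sept10. The ranges of the 2 libraries did not overlap for any pair of neighbors in this order, but the gap was narrow for Sept3 and Sept2 (48.0 against 47.9 RPKM) and for Sept11 and Sept10 (5.76 against 5.70 RPKM). With 1 library per sex, the difference between male and female has no replicate and was not tested. On the scale of log2(RPKM + 0.1), the septins differed between the libraries by -0.09 (Sept3) to 0.19 (Sept7), female minus male, with 7 of 10 higher in the female library. Among the genes with at least 1 RPKM, 48.7% were higher in the female library, and the median absolute difference was 0.14.

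Genes of proteins that work with septins were read from a list of 11. These were the GTPase Cdc42 and its effectors Cdc42ep1 to Cdc42ep5 (the Borg proteins, which bind septins), the scaffold anillin (Anln), Stx1a and Vamp2 of the synaptic vesicle machinery, the glutamate transporter Slc1a3 and the ubiquitin ligase Park2. Vamp2, a vesicle SNARE, and Cdc42 had nearly equal means at the top, with Vamp2 at 150.2 and 116.9 RPKM and Cdc42 at 128.7 and 137.5 RPKM, male and female. Cdc42ep5 was lowest at 0.462 and 0.402 RPKM. The spread within the Borg genes was wide, with Cdc42ep2 highest at 34.8 and 39.7 RPKM. Glial RNA was abundant in these libraries, with Mbp at 2151 and 2114 RPKM and Gfap at 477 and 523 RPKM, beside Chat at 9.20 and 10.4 RPKM. In such bulk samples, fewer cells of a type and less RNA per cell cannot be told apart.

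The next question was which septin exons were spliced in or out. The 13 cassette exon events lay in 6 genes: Sept3 (2), Sept4 (3), Sept5 (1), Sept6 (2), Sept7 (1) and Sept11 (4). Sept2, Sept8, Sept9 and Sept10 had none in the tables, which hold cassette exons and not alternative last exons. For 10 events both libraries had at least 10 junction reads. The inclusion rate was computed from junction reads only: the reads of the 2 junctions that include the exon were averaged, and this average was divided by its sum with the skipping reads. Of these 10 events, 6 had a mean inclusion rate of at least 95%, compared with 47.9% of the 9396 exons covered at this depth.

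The septin exon used most variably was a 66-nt exon of Sept3 (chr15:82121683-82121748, plus strand), whose length keeps the reading frame. The male library had 14 and 5 reads on its inclusion junctions and 40 on the skipping junction, an inclusion rate of 19.2% (95% Wilson interval 11.2 to 33.0%). In the female library the junctions had 26, 1 and 30 reads, a rate of 31.0% (20 to 46.6%). The intervals of the 2 libraries overlap. This exon lies inside the annotated last exon of Sept3, a stretch of 3′ UTR in the other isoform, and its body held 381 and 341 reads. When exon body reads were counted with the inclusion junctions, as in the deposited inclusion counts, the mean rate was 91.7% in place of 25.1% ± 8.37 (SD, n = 2), so the junction rate is the value reported here. The last exon is 3705 nt long and held 91.4% of Sept3 CLIP reads in WSC and 96.2% in MNs. Of all Sept3 reads, 1085 of 7592 in WSC and 71 of 504 in MNs fell in the 66-nt exon or within 400 nt of it, a mean share of 14.1% ± 1.44 (SD, n = 4) and 15.5% ± 4.72 (SD, n = 8). This is no more than an even spread over the last exon would give, so within this limit the reads were not concentrated around the 66-nt exon. Both Sept3 windows of highest coverage begin just past the 400-nt limit on the downstream side (WSC window chr15:82122159-82122188). They were touched by 16.5% of WSC reads and 17.3% of MN reads, each in its own window, and a wider limit was not tested. The exon itself held 38 WSC and 2 MN reads.

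In Sept4, a 297-nt exon (chr11:87396820-87397116) was included at 95% in both libraries against the first of its 2 upstream exons, with 83 and 70 skipping reads, and at 99.7 and 99.2% against the other. A 118-nt exon of Sept4 (chr11:87402470-87402587), whose length shifts the reading frame, was included at 97.9 and 98.5%. The 97-nt exon of Sept5 (chr16:18623414-18623510) was included at 99.5 and 99.0%. These rates differ from full inclusion by skipping reads that were few but present in both libraries.

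Exons without any skipping read were the 192-nt exon of Sept3, the 97-nt exon of Sept6 and the 162-nt exon of Sept11 (3 of the 10). With 444 and 426 junction reads, the 95% Wilson interval of the Sept6 exon reached down to inclusion rates of 98.3 and 98.2%, male and female. It reached down to 94.6 and 92.3% for the 192-nt exon of Sept3. For the 162-nt exon of Sept11 it reached down to 93.0 and 92.3%. A pair of Sept11 events with a shared upstream splice site, of 100 and 159 nt (chr5:93567464-93567563 and chr5:93567464-93567622), were mostly skipped. The 100-nt form had no inclusion read beside 34 and 13 skipping reads, with Wilson intervals that reached up to inclusion rates of 10.2 and 22.8%. The 159-nt form had no inclusion read in the male and 3 in the female library, and the latter rate was 10.3% (4.01 to 39.9%). All 3 reads were on its downstream junction, and no read joined it to the upstream exon. Such intervals and limits cover counting error only. All Wilson intervals given here were computed after the averaged junction reads were rounded to whole numbers, which matters most where reads are few.

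**Figure D2:**
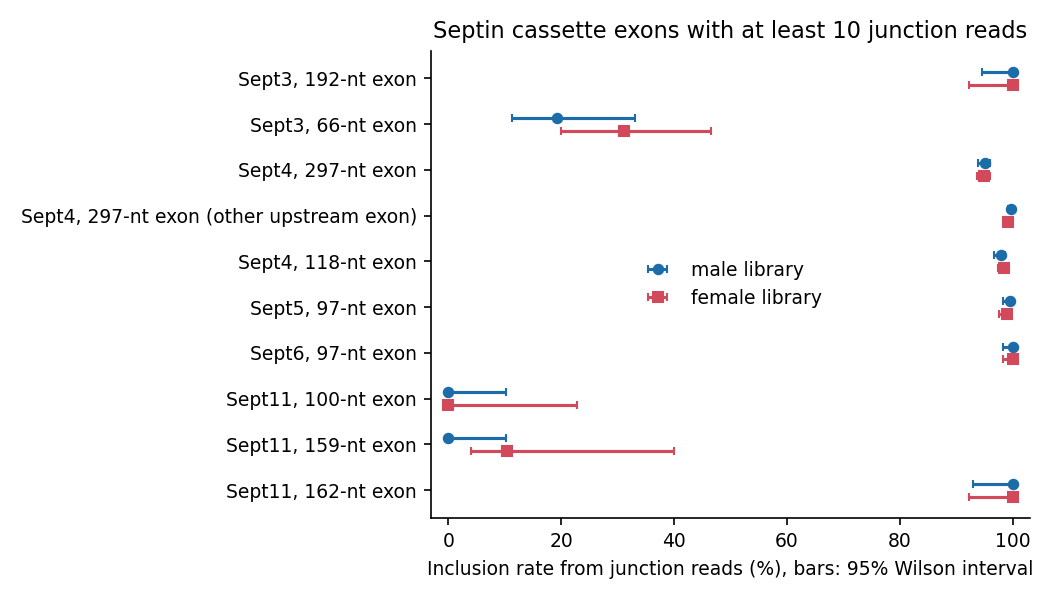
Inclusion rates of the 10 septin cassette exon events with at least 10 junction reads in each library, in percent, for the male (circles) and female (squares) library, with 95% Wilson intervals. The 66-nt exon of Sept3 lies at 19.2 and 31.0%, 2 Sept11 events lie near 0, and the other 7 lie at 95% or above after rounding.

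Between the male and the female library, Fisher's exact test with Benjamini-Hochberg adjustment over all exons called none of the 10 septin events at an FDR of 0.1. This test used the deposited inclusion counts, which include exon body reads, and not the junction rates given above. Over all 9396 exons it called 400 (4.26%). The lowest septin value was that of the 159-nt exon of Sept11 (unadjusted p = 0.0286 by Fisher's exact test, FDR 0.305), the only one of the 10 with an unadjusted p under 0.05. The test compares 2 libraries and not the sexes, and the same test on junction reads only, with the same minimum, also called none of the septin events.

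The CLIP libraries answer a separate question, how many NOVA-bound reads each septin had. In WSC, Sept3 had the most, at 569 ± 22.3 CPM (SD, n = 4; CPM are reads scaled to the number of reads on genes after TMM adjustment of library sizes by edgeR), followed by Sept7 at 363 ± 19.0, Sept8 at 255 ± 7.70, Sept11 at 199 ± 12.3 and Sept6 at 112 ± 5.41 CPM. Sept9, Sept2 and Sept5 had 47.9 ± 4.23, 47.1 ± 4.53 and 35.7 ± 6.42 CPM. Sept10 and Sept4 came last, at 9.12 ± 0.92 and 7.59 ± 2.17 CPM. Sept12 and Sept14 had no read in any of the 12 libraries.

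The order by CLIP was unlike the order by RNA. Sept4 had the most RNA per length and the fewest CLIP reads, with 10 to 47 reads in a WSC library. Set against the share of RNA-seq reads, and with CLIP CPM without the TMM scaling, Sept4 had a CLIP to RNA ratio of 0.0157, and 4.00% of 10970 genes with at least 1 RPKM had a lower one, whereas Sept11 had a ratio of 3.74, above that of 93.6% of these genes. Sept3 followed at 1.83, and Sept5 and Sept2 lay below the median of 0.463 at 0.243 and 0.310. These ratios are a description across genes. They set libraries of different mouse strains side by side, and CLIP reads include introns whereas the RNA-seq was made from poly(A) RNA.

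Between MNs and WSC, 4 of the 7 septins with enough reads to be tested passed an FDR of 0.01, a share near the 56.7% called among all 4530 genes tested. Sept8 rose, and Sept3, Sept6 and Sept11 fell, against 27.6% of all genes called higher and 29.2% called lower. This near balance depended on the filter on low counts, without which 1040 genes were called higher and 2656 lower. Sept2, Sept7 and Sept9 did not pass. Sept4, Sept5 and Sept10 had too few MN reads for the test. The fits used edgeR's quasi-likelihood test with Benjamini-Hochberg adjustment, with the 2 MN lines given equal weight. With all libraries thinned to the depth of the smallest, none of the 4 calls was retained: Sept8 and Sept3 did not pass, and Sept6 and Sept11 had too few reads to be tested.

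Sept8, a partner of Sept5 and Vamp2 in nerve terminals, was the 1 of the 7 tested septins called higher in MNs. Line 6 libraries had 425, 397, 421 and 498 CPM and line 17 libraries 396, 539, 365 and 365 CPM, from 18 to 226 reads each. The WSC libraries had 266, 248, 253 and 253 CPM. All 8 MN libraries lay above all 4 WSC libraries. The log2 fold change was 0.72 (SE 0.10, edgeR FDR 3.9e-07), and within the libraries of 1 sequencing run it was 0.64 (edgeR FDR 1.4e-06). After thinning it was 0.43 (edgeR FDR 0.156).

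Sept6, which pairs with Sept2 and Sept7 in the classic hexamer, went the other way. Line 6 libraries had 45.5, 82.8, 47.9 and 19.1 CPM and line 17 libraries 65.9, 63.9, 49.7 and 42.0 CPM, from 3 to 26 reads each. The WSC libraries had 113, 107, 109 and 119 CPM. No MN library reached the WSC range. The log2 fold change was -1.29 (SE 0.18, edgeR FDR 8.7e-07), -1.50 within 1 sequencing run and -2.22 with exonic reads only. In WSC, 82.0% of Sept6 reads were exonic, most of them in the last exon, where the WSC window shown above lies, whereas in MNs 16 of 64 reads (25%) were exonic.

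Sept3 had 298 to 703 CPM in MNs with a median of 357, and 536 to 583 CPM in WSC. Of the MN libraries, line 17 replicate 1 lay above the WSC range and the other 7 below it. The log2 fold change was -0.62 (SE 0.12, edgeR FDR 4.5e-05), -0.80 within 1 sequencing run and -0.51 after thinning (edgeR FDR 0.054). Sept11, a septin of GABAergic synapses and dendritic arbors, had 49.7 to 308 CPM in MNs with a median of 105, and 184 to 209 CPM in WSC. Here too line 17 replicate 1 lay above the WSC range and the other 7 MN libraries below it. The log2 fold change was -0.95 (SE 0.16, edgeR FDR 1.2e-05), and -1.11 within 1 sequencing run.

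The calls of Sept3 and Sept11 depended on which reads were counted. With exonic reads only, Sept3 was at 0.16 (edgeR FDR 0.272) and Sept11 at -0.21 (edgeR FDR 0.359). The reads of Sept3 were almost all exonic, 99.1% in WSC and 98.2% in MNs, while the exonic share of all reads was lower in MNs, as given above. The part of this shift in the Sept3 value was not tested. For Sept11 the exonic share was alike, 64.5% in WSC and 63.9% in MNs, and intronic reads only gave -1.75 (edgeR FDR 9.1e-08).

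Sept7 had 219 to 441 CPM in MNs with a median of 324, and 342 to 384 CPM in WSC. Its log2 fold change was 0.04 (SE 0.11, edgeR FDR 0.746), and its sign changed between settings. Sept2 was at 0.34 (SE 0.19, edgeR FDR 0.119) and Sept9 at 0.23 (SE 0.19, edgeR FDR 0.301). Sept4 had 0 to 12, Sept5 0 to 8 and Sept10 1 to 15 reads in an MN library. When the filter on low counts was left out, Sept4 was at 1.23 (edgeR FDR 0.0022), Sept5 at -1.23 (edgeR FDR 0.0005) and Sept10 at 0.76 (edgeR FDR 0.120). All 3 had enough reads within 1 sequencing run, where Sept4 was at 1.71 (edgeR FDR 0.00022), Sept5 at -1.12 (edgeR FDR 0.0044) and Sept10 at 0.95 (edgeR FDR 0.053). In line 17 alone, Sept10 was at 1.33 (edgeR FDR 0.0052), Sept4 at 1.35 (edgeR FDR 0.019) and Sept5 at -0.77 (edgeR FDR 0.101). In line 6 alone, Sept10 was at 0.58 (edgeR FDR 0.418) and Sept5 at -1.32 (edgeR FDR 0.024). No MN read of Sept4 was seen in 3 of the 8 libraries.

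**Figure D3:**
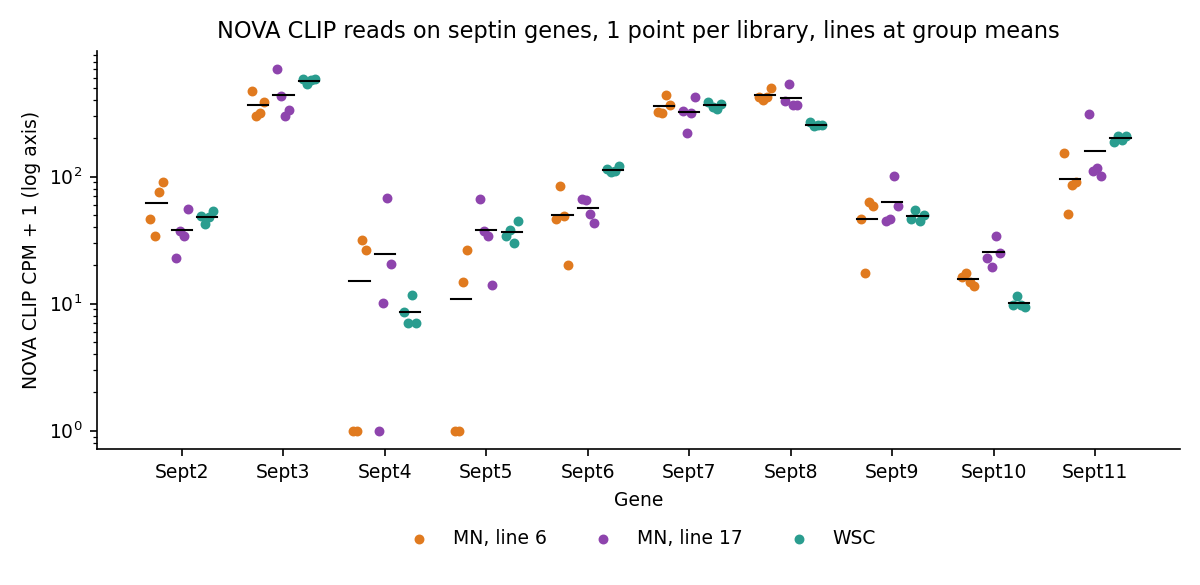
NOVA CLIP reads on the 10 septin genes, as scaled CPM plus 1 on a log axis, with 1 point per library for MN line 6, MN line 17 and WSC and a line at each group mean. All Sept8 points of the MN lines lie above those of WSC, at 365 to 539 against 248 to 266 CPM, and all Sept6 points lie below, at 19.1 to 82.8 against 107 to 119 CPM.

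Between the MN lines, no septin and no other gene differed at an FDR of 0.01 by edgeR (0% of 4530 genes), with 213 genes at an unadjusted p under 0.05 and 1 gene called by DESeq2. Septin log2 fold changes between line 6 and line 17 lay between -0.37 (Sept11) and 0.55 (Sept2). Of the partner genes, 3 of 11 had enough reads. Cdc42 rose in MNs by 0.60 (edgeR FDR 0.00015), Vamp2 did not pass (-0.24, edgeR FDR 0.439), and Park2, which the annotation lists as 2 genes, rose in both (1.15 and 0.89).

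The within-gene test asked whether MN and WSC reads were spread differently over the exons and introns of a septin, whatever the total. It covered 3278 exons and introns in genes with enough reads, and 59.9% of them passed an FDR of 0.1. Of the septins, 6 such parts were tested, 4 of Sept8 and 2 of Sept11. All 4 of Sept8 passed and neither of Sept11 did. The Sept11 parts were at -0.26 for the intron that holds the WSC window shown above and 0.03 for the exon downstream, with 806 and 1632 WSC reads.

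Sept8 ends in 1 of 2 alternative last exons, 10a (chr11:53354532-53357598) and 10b (chr11:53361793-53363067), which give proteins with different C-terminal ends. The gene lies on the plus strand, so 10a comes first. In WSC, exon 10b held 62.0, 64.7, 59.4 and 64.8% of Sept8 reads. In MNs it held 14.3 to 27.3% with a mean of 20.2% ± 4.60 (SD, n = 8). The groups did not overlap, and the relative read share of exon 10b was lower in MNs by -1.21 on the log2 scale (edgeR FDR 1.4e-16). This is a share of NOVA-bound reads and does not measure how often transcripts end in exon 10b. For the transcripts the paper reports the opposite from RNA-seq, with more use of this last exon in MNs than in WSC.

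The tested parts upstream of exon 10b changed in the other direction. All parts divide the same Sept8 reads, so a fall in exon 10b goes with a rise elsewhere. The calls below are therefore not separate from that of exon 10b. Shares among the reads outside exon 10b were not tested. Exon 10a held 21.9% ± 4.46 of Sept8 reads in MNs and 11.2% ± 1.38 in WSC, with no overlap (log2 difference in relative read share 0.54, edgeR FDR 1.6e-04). The intron between 10a and 10b held 36.3% ± 11.6 and 8.57% ± 1.77 (log2 difference 1.34, edgeR FDR 5.0e-17). Line 17 replicate 3, with 2 of its 22 reads there, fell inside the WSC range, and the other 7 MN libraries lay above it. The intron before exon 10a held 18.4% ± 4.77 and 6.17% ± 0.65 (log2 difference 0.98, edgeR FDR 5.6e-09). The exons and introns up to exon 9 held 3.23% ± 2.83 in MNs and 11.3% ± 2.20 in WSC.

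**Figure D4:**
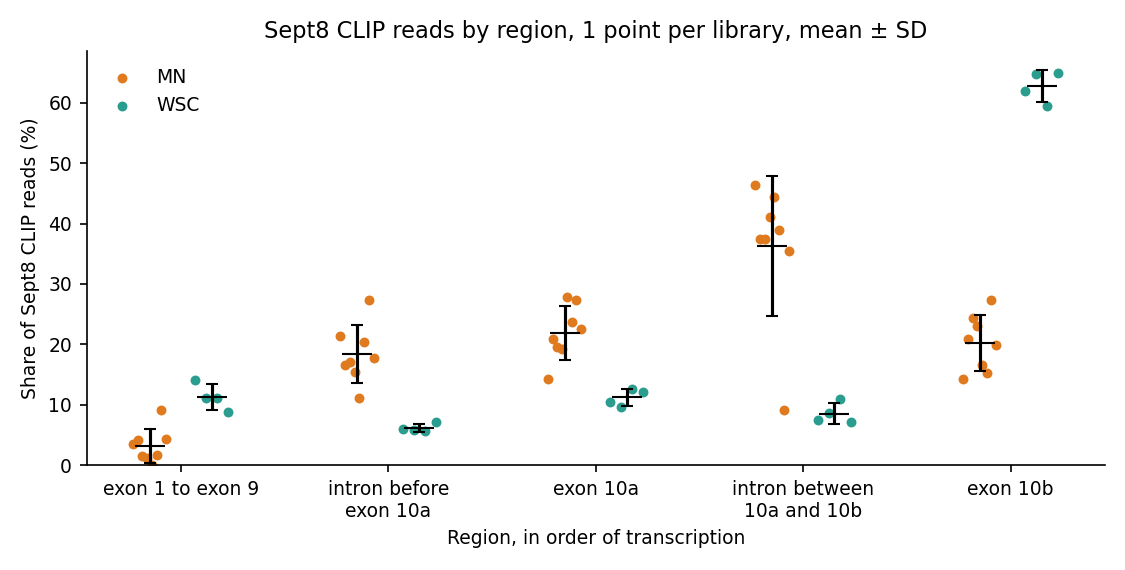
Share of Sept8 NOVA CLIP reads in 5 regions of the gene in order of transcription, in percent, with 1 point per library and mean ± SD for MN (n = 8) and WSC (n = 4). Exon 10b holds 59.4 to 64.8% of reads in WSC and 14.3 to 27.3% in MNs, and exon 10a and both introns hold more in MNs.

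Because introns as a whole held more reads in MNs, exons and introns were also tested as separate sets, which compares exons with exons and introns with introns of the same gene. Each set held only 2 parts of Sept8, so a rise in either goes with a fall in the other, and they are not separate results. The split is also incomplete, as 10a is part of an intron in transcripts that end in 10b. Among exons alone, 10a rose in MNs (1.20, edgeR FDR 1.3e-10) and 10b fell (-0.55, edgeR FDR 1.1e-04). As the same contrast in single libraries, 10a took 44.4 to 62.5% of the reads on these 2 exons in MNs and 13.1 to 17.5% in WSC, without overlap. Among introns alone, neither Sept8 intron passed: the intron between 10a and 10b was at 0.11 (edgeR FDR 0.647) and the intron before 10a at -0.25 (edgeR FDR 0.270). Compared with the introns of other genes, Sept8 introns held more reads in MNs: with intronic reads only, the gene-level log2 fold change of Sept8 was 1.69 (edgeR FDR 3.9e-12), and with exonic reads only it was 0.56 (edgeR FDR 2.8e-04).

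Along the gene, the highest 250-nt step in MNs lay in the intron just upstream of exon 10b, where the MN window shown above with its 2 YCAY motifs lies. In WSC the highest step lay near the end of exon 10b, around the WSC window. Other steps were also higher in MNs. The step at the end of exon 10a held 5.77% of reads in MNs and 2.37% in WSC, another in the intron between 10a and 10b held 4.78 and 0.78%, and a pair in the intron before exon 10a held 5.85 and 2.72% and 3.23 and 0.51%. These steps were not tested. Within 200 nt of the annotated end of exon 10a, MN libraries had 7.14, 8.33, 7.32 and 6.41% (line 6) and 5.56, 6.78, 4.55 and 8.41% (line 17) of their Sept8 reads, 43 reads in all. WSC libraries had 2.29, 2.36, 2.42 and 3.33%, 85 reads in all. All MN libraries lay above all WSC libraries, by 4.21 percentage points on average. These are shares of all Sept8 reads, so the smaller share of exon 10b in MNs goes with larger shares elsewhere. The share among reads outside exon 10b was not tested. The p-value was 0.00404 in a two-sided exact permutation test, the smallest that 8 against 4 libraries can give. The paper had picked out this region from the same CLIP reads, so this p-value is no independent evidence. Around the other annotated end of exon 10a, which lies closer to its start, MNs and WSC differed by -0.94 percentage points (p = 0.368, exact permutation test).

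**Figure D5:**
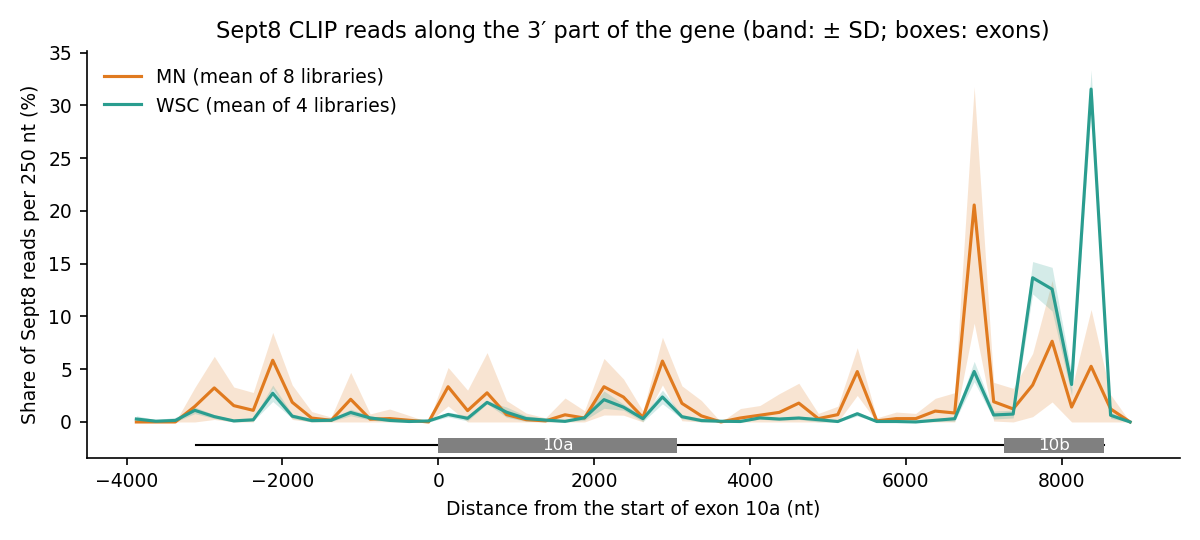
Share of Sept8 CLIP reads per 250 nt in MN (mean of 8 libraries) and WSC (mean of 4 libraries), in percent, against the distance from the start of exon 10a in nt, with bands of ± SD and boxes for exons 10a and 10b. MN reads peak in the intron upstream of exon 10b and WSC reads within exon 10b, and MN reads are also higher at the end of exon 10a and at steps in both introns.

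Sept3, Sept6, Sept7 and Sept9 had too few exons and introns with enough reads for the within-gene test. As a description, 54.4% of Sept7 reads were exonic in MNs and 81.2% in WSC, and the MN and WSC windows lay 279 nt apart in the same 3′ UTR. For Sept9, 40 of 80 MN reads and 525 of 649 WSC reads were exonic. The WSC window of Sept9 lay in the coding part of its last exon, and was touched by 125 of 649 WSC reads and 5 of 80 MN reads.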

How the data were processed

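The members and gene lists were chosen with earlier results of these data known. The authors aligned CLIP reads with Novoalign to mm9, collapsed duplicates and deposited unique reads as BED lines with a score that was not used. For 1 library the submitters' notes also name mm10; 72.1% of its reads fell on 1 gene, within the range of the others (71.9 to 81.2%), and no read of any library passed a chromosome end in the mm9 reference. For RNA-seq the authors deposited counts per gene, RPKM and junction counts (OLego, mm9, Quantas). In the female table septin symbols had been turned into dates, so tables were joined by NCBI gene ID. Exon coordinates were rebuilt from the offsets in exon names and annotated splice sites, and all 13 exons were flanked by AG and GT.

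Reads were counted by midpoint and strand on protein-coding GENCODE genes of the same build, if on exactly 1 gene. edgeR 4.0.16 (filterByExpr, TMM, glmQLFit, diffSpliceDGE; R 4.3.3) tested MN lines against WSC, line 6 against line 17, and exons and introns within genes, at FDR thresholds of 0.01 for genes and 0.1 for parts of genes and cassette exons. SEs were approximated from the test statistic. Fisher's exact test and permutation tests used scipy 1.17.1. Scripts were tested on simulated data. All 10 septins were named, with partners past the threshold and, in RNA-seq, the highest and lowest. DESeq2 1.42.0, other filters, thinning, read classes, a replicate block and leaving out each library were the alternatives. Replicates of a group are separate samples by the labels. Read names put 4 MN and all 4 WSC libraries in 1 sequencing run and the other MN libraries in others, so values within that run were added after seeing the data.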

Additional observations from a re-analysis of the deposited data

Results flagged for a closer look

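Over 48 groups of 4 libraries, 3 had a library that stood apart by Dixon's test, and chance alone flags about 1 in 20 groups. Sept11 had 307.6 CLIP CPM in line 17 replicate 1, compared with 100.2 to 116.1 CPM in the other 3 libraries of the line. This library is the shallowest of the 12, and 7 to 62 Sept11 reads lay in each library of the line. Sept3 had 535.8 CPM in WSC replicate 2, with the other WSC libraries at 575.3 to 583.0 CPM. The share of Sept8 reads near the end of exon 10a was 3.33% in WSC replicate 4, compared with 2.29 to 2.42% in the others.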

How the results depend on the processing

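Depth limits the MN values: thinned to the smallest library, 470 genes passed (216 higher and 254 lower in MNs) in place of 2570 (1249 and 1321). Sept8 (0.43, FDR 0.156) and Sept3 (-0.51, FDR 0.054) did not pass there, and Sept6 and Sept11 could not be tested. Exonic reads only called 1060 genes (523 and 537), with Sept3 reversed at 0.16 and Sept11 at -0.21, and intronic reads only 742 (334 and 408). No filter called 1040 genes higher and 2656 lower in MNs. Sept7 was reversed with DESeq2 (-0.045), without the filter (-0.20), in line 17 alone (-0.048) and after thinning (-0.14), and ranged from -0.18 to 0.11 with each library left out, below 0 without line 6 replicate 3, line 17 replicate 4, WSC replicate 2 or WSC replicate 3. The cause was not tested. Leaving out each library in turn kept Sept8 between 0.66 and 0.80, Sept3 between -0.70 and -0.52, Sept6 between -1.38 and -1.13 and Sept11 between -1.04 and -0.76, all past the threshold, and called 1851 to 2886 genes.

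The labels give no shared source for a replicate number. Line 6 and line 17 libraries of replicates 1, 2 and 4 correlated at 0.25, 0.14 and 0.33 with their own number and at most 0.048 with another, a hint of pairing from the data, but replicate 3 at 0.079 against 0.24, and same-numbered MN and WSC libraries at -0.19 to 0.09. Read names put both libraries of replicate 1 on 1 machine, those of replicate 2 on another and those of replicates 3 and 4 on the third. With the replicate number as a block, Sept8 was at 0.74 (FDR 1.2e-05) and Sept7 was reversed (-0.038), and no septin call changed.

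Between the lines, DESeq2 and no filter called 1 gene each, higher in line 17, and leaving out libraries 0 to 3, with 3 without line 17 replicate 4. No septin passed. With each library left out the differences of Sept7 (-0.098 to 0.51), Sept6 (-0.47 to 0.15), Sept3 (-0.35 to 0.026) and Sept8 (-0.050 to 0.26) crossed 0, and Sept3 was at 0.053 within 1 sequencing run.

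For parts of genes, a minimum of 20 reads called 12426 (6454 larger and 5972 smaller in MNs; 26 in septins), separate sets 469 (233 and 236; 2 in septins, with the intron before exon 10a reversed at -0.25), and 1 sequencing run 7902 (4566 and 3336; 18 in septins), in place of 1964. Leaving out each library called 1213 to 2767 (694 to 1644 larger, 519 to 1127 smaller, 4 to 6 in septins), with the lowest count without line 17 replicate 4, 1264 without line 6 replicate 3 and 1283 without WSC replicate 2. All 4 Sept8 parts passed in each of these leave-one-out fits.

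The difference near the end of exon 10a was 3.98 to 4.54 percentage points without each library and 4.07 within 1 sequencing run. At the other end, an alternative chosen after seeing the data, it reversed to -0.94. The mean inclusion rate of the 10 septin events was 72.2%, or 79.8% with exon body reads. The median septin lay above 91.9% of genes by CPM and 88.1% of genes with at least 1 RPKM, and 92.56 to 92.60% in single libraries.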
